A study of Bos taurus with 170 samples.

Results

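The genes CNR2, GFRA3, CRABP1, GAT, MAGEH1 and MESDC1 were examined one at a time in blastomeres of in vitro produced bovine embryos. They are 6 of the 20 genes in the UMI table that belong to a list of genes transcribed at major embryonic genome activation and absent from oocytes and earlier embryos, and 6 of 10772 genes in all. The list came from earlier work on whole embryos, and its genes with any UMI in these blastomeres were kept. The 6 genes were then picked from it as genes of low abundance, with 17 to 79 UMI each over all blastomeres. Their low level is thus a property of the choice and not a result. Other genes of the list were as low and were not among the 6, such as LRRC14 with 5 Day 2 and 12 Day 3 UMI and PTGDR with 5 and 16. Since a gene without a Day 2 UMI could enter only through Day 3, the direction of its difference was also set by the choice.

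Before genome activation the bovine embryo lives on RNA and protein stored in the oocyte. Around the fourth cell cycle the embryo starts to transcribe many genes of its own while the stored transcripts are degraded. A unique molecular identifier (UMI) is a random tag added to each captured mRNA molecule, so a gene with few UMI is one of which few molecules were caught, and the question for each of the 6 genes was whether its few molecules came from 1 embryo or from many.

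The embryos came from oocytes of slaughterhouse ovaries that were matured and fertilised in culture with thawed bull semen, and no treatment was given to either group. Day 2 embryos (Day2-E1 to Day2-E6) were labelled with a stage of 8 cells and Day 3 embryos (Day3-E1 to Day3-E8) with a stage of 16 cells, and all had been chosen for their cleavage timing. Cleavage times and collection hours, as given in the paper, still differed among the embryos of each day. After blastomeres with fewer than 2000 UMI were left out, 43 Day 2 and 118 Day 3 blastomeres remained. The embryo was the replicate, because blastomeres of 1 embryo are not independent. The gene UMI of an embryo summed to between 438899 and 920192 on Day 2 and between 294912 and 600185 on Day 3, while the median blastomere held 76074 UMI on Day 2 and 24696 on Day 3. The labels give cell barcodes but name no sets of them. The same barcodes recur, and of 92 among the kept blastomeres 69 were borne by 2. Embryos listed before the first reuse of a barcode are called the first barcode set here: every Day 2 embryo, Day3-E1 and Day3-E2. Those listed after it, Day3-E4 to Day3-E8, are called the second set, and Day3-E3 is unsettled by the labels. The ERCC spike-in share was 1.38% to 1.52% on Day 2. On Day 3 it was 1.3995% to 1.46% in Day3-E1 to Day3-E3 and 2.43% to 2.98% in Day3-E4 to Day3-E8, so it differed with the barcode set. The unit of level is CPM, a gene's UMI per 1000000 gene UMI of the same embryo. Intervals and limits cover counting error only.

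Markers of the labelled cells were checked. Of 15 oocyte and early embryo genes, 11 were measured, and their summed level was 9803 to 11636 CPM on Day 2 and 3200 to 12401 CPM on Day 3. By edgeR's test 0 of the 11 were called higher and 5 lower on Day 3 (GDF9, NLRP5, OOEP, ZAR1 and DDX4), against 6.1% of all genes called lower, and 6 were called lower without TMM scaling and with DESeq2. Of 18 cumulus and granulosa genes, 14 were measured, at a summed 641 to 803 CPM on Day 2 and 296 to 762 CPM on Day 3, and FSHR, CYP19A1, AMHR2 and LUM were absent from the table. The median log2 fold change of these 14 genes was -0.33, with 2 called higher, against 14.23% of all genes, and 0 lower, although STAR was called lower without TMM scaling. The 2 were TNFAIP6, with 1 UMI on Day 2 and 35 on Day 3, and AMH, with 1 and 10 UMI. DESeq2 called TNFAIP6 and INHBA higher instead, and not AMH. The part of these markers in the results on the 6 genes was not tested. Sperm genes reached at most 5.12 CPM on Day 2 and 7.72 CPM on Day 3, and blood and somatic genes at most 15.9 and 10.17 CPM.

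On Day 2, CNR2, GAT and MAGEH1 had 0 UMI in every embryo, GFRA3 and MESDC1 had 1 UMI each, and CRABP1 had 9. All 6 genes had more UMI on Day 3, from 16 for GFRA3 to 72 for MESDC1, and 11 of the 258 UMI of the 6 genes came from Day 2. The Day 2 blastomeres held more UMI in total than the Day 3 blastomeres, 4023294 against 3150380 on genes.

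**Figure D1:**
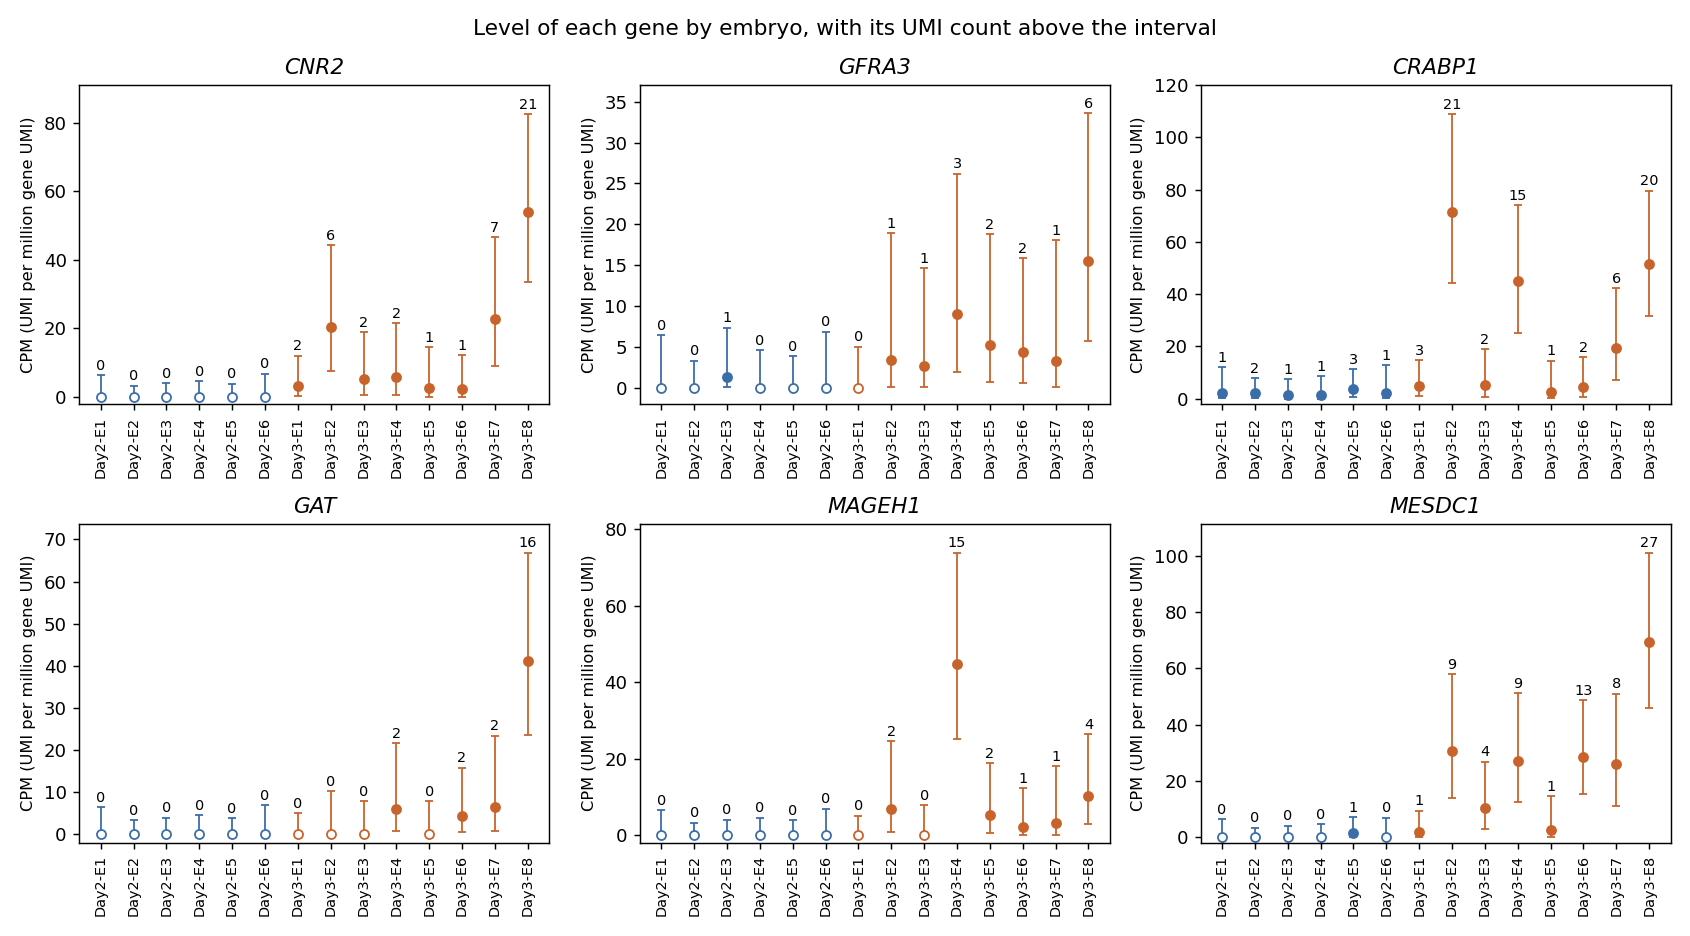
Level of each gene (CPM, vertical axis) in each embryo (horizontal axis; blue Day 2, orange Day 3), with its 95% exact Poisson interval, or the limit of 3 UMI where the count was 0 (open circles), and the UMI count above it. CNR2, GAT and MAGEH1 lie at 0 in all 6 Day 2 embryos, and Day3-E8 is the highest embryo for CNR2, GFRA3, GAT and MESDC1.

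A count of 0 does not show absence, so the limit that it allows was computed. For all Day 2 blastomeres together, 3 UMI would be 0.746 CPM, and 3 UMI in a single Day 2 embryo would be 3.26 to 6.84 CPM. Had CNR2 been on Day 2 at the level of all Day 3 blastomeres together (13.33 CPM, 95% exact Poisson interval 9.61 to 18.0), 53.6 UMI would have been counted on Day 2 instead of 0. The same reckoning gave 28.1 UMI for GAT and 31.9 for MAGEH1, again against 0. These values rest in large part on 1 embryo, and without the Day 3 embryo that held most of each gene they were 30.6 UMI for CNR2 (without Day3-E8), 8.74 for GAT (without Day3-E8) and 14.29 for MAGEH1 (without Day3-E4). By blastomeres, 0 of 43 allows a share with a UMI of up to 6.98%, were the blastomeres independent.

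CNR2 encodes cannabinoid receptor 2, a G protein-coupled receptor on the cell surface best known from immune cells. Its 42 Day 3 UMI lay in all 8 Day 3 embryos, with 2 UMI each in Day3-E1, Day3-E3 and Day3-E4, 21 in Day3-E8, 7 in Day3-E7, 6 in Day3-E2 and 1 in each of Day3-E5 and Day3-E6. Many embryos thus carried the gene, but Day3-E8 alone held 21 of the 42 UMI against 12.3% of all Day 3 UMI. The level by embryo ran from 2.19 to 54.1 CPM with a median of 5.61, and its mean of 14.55 ± 17.9 CPM (SD, n = 8) had a spread larger than itself. Without Day3-E8 the mean of the others was 8.90 ± 8.73 CPM (SD, n = 7). Every Day 3 embryo lay above every Day 2 embryo, which 2.33% of all genes did, but only for Day3-E2, Day3-E7 and Day3-E8 did the counting interval lie wholly above the Day 2 limit.

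Taken over all blastomeres, CNR2 was at least 17.9-fold higher on Day 3 than 3 UMI over the Day 2 blastomeres would be, and at least 10.197-fold without Day3-E8. By edgeR's quasi-likelihood test on embryo sums with Benjamini-Hochberg adjustment over all 10772 genes, the adjusted p was 0.00117, and that test called 14.23% of all genes higher on Day 3. An exact permutation of the embryos, two-sided on CPM, gave p = 0.0386 and 0.124 after adjustment over all genes. Without a Day 2 UMI, the direction of CNR2 was set by the choice of genes, so neither test is support for a rise. CNR2 was found in 27 of 118 Day 3 blastomeres, or 23.0% ± 20.3 of those of an embryo (SD, n = 8), and no blastomere held more than 4 UMI. A UMI of the receptor's transcript was thus detected in 10 of the 15 blastomeres of Day3-E8, in 5 of 14 of Day3-E2, in 4 of 15 of Day3-E7, and in 1 or 2 blastomeres of each of the other Day 3 embryos.

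GFRA3 encodes GDNF family receptor alpha 3, which binds the ligand artemin and signals with the receptor tyrosine kinase RET. It had the fewest UMI of the 6 genes. Its only Day 2 UMI was in a blastomere of Day2-E3, and on Day 3 it had 0 UMI in Day3-E1, 1 each in Day3-E2, Day3-E3 and Day3-E7, 3 in Day3-E4, 2 each in Day3-E5 and Day3-E6, and 6 in Day3-E8. Each of these 16 Day 3 UMI came from a different blastomere, so no blastomere held more than 1. GFRA3 was therefore spread thinly over 7 embryos rather than carried by 1, although Day3-E8 held 37.5% of it.

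The level of GFRA3 was 0.220 ± 0.539 CPM (SD, n = 6) on Day 2 and 5.40 ± 4.79 CPM (SD, n = 8) on Day 3. The ratio of the pooled levels was 20.4, with a 95% exact interval of 3.17 to 857 that shows how little 1 UMI fixes it. The adjusted p was 0.00515 by edgeR's test (log2 fold change 3.68, standard error 0.90), and the exact permutation test gave p = 0.00966, or 0.0593 adjusted over all genes. With the first barcode set alone, which leaves 1 Day 3 UMI, edgeR's adjusted p was 0.721. RET, the partner of the receptor, was as sparse, with 1 UMI on Day 2 and 15 on Day 3, and its adjusted p by edgeR's test was 0.00419 (log2 fold change 3.57).

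CRABP1 encodes cellular retinoic acid-binding protein 1, which holds retinoic acid in the cytoplasm. It was the only gene of the 6 with a UMI in every embryo of both days. On Day 2 it had 1 UMI in Day2-E1, Day2-E3, Day2-E4 and Day2-E6, 2 in Day2-E2 and 3 in Day2-E5, and on Day 3 it had 3 UMI in Day3-E1, 21 in Day3-E2, 2 in Day3-E3, 15 in Day3-E4, 20 in Day3-E8, 6 in Day3-E7, 2 in Day3-E6 and 1 in Day3-E5. The Day 3 embryos thus fell apart, with Day3-E1, Day3-E3, Day3-E5 and Day3-E6 near the Day 2 level and the other 4 above it. The lowest Day 3 embryo, Day3-E5 at 2.599 CPM, lay below the highest Day 2 embryo, Day2-E5 at 3.84 CPM, so the groups overlapped.

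The mean level of CRABP1 was 2.21 ± 0.887 CPM (SD, n = 6) on Day 2 and 25.5 ± 26.7 CPM (SD, n = 8) on Day 3. Pooled, this was a 9.93-fold difference (95% exact interval 4.94 to 22.6). EdgeR's test gave an adjusted p of 0.00159 (log2 fold change 3.57, standard error 0.76), whereas the exact permutation test gave p = 0.0543 and 0.153 adjusted over all genes. No single embryo carried CRABP1: Day3-E2 held 21 of its 70 Day 3 UMI and Day3-E8 held 20. The highest count in a blastomere was 8 UMI, in Day3-E2, and without that blastomere the share of Day3-E2 was 21.0% and Day3-E8 led.

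CRABP1 was detected in 8 of 43 Day 2 and in 34 of 118 Day 3 blastomeres. Day 2 embryos had a mean share of 18.2% ± 4.42 (SD, n = 6) and Day 3 embryos one of 29.4% ± 21.4 (SD, n = 8), which differed by 11.24 percentage points (exact permutation p = 0.241, adjusted p = 0.362). With each blastomere thinned to 10000 UMI, which left 37 Day 2 and 103 Day 3 blastomeres and removed 6 and 15, the expected shares were 2.099% ± 0.864 (SD, n = 6) and 15.34% ± 14.62 (SD, n = 8). That difference had an exact permutation p of 0.0190, which was 0.0900 after adjustment over all genes. Each of the 43 Day 2 blastomeres shared a cell barcode with a Day 3 blastomere. The Day 3 partners of the 8 Day 2 blastomeres with CRABP1 included 1 with a CRABP1 UMI, that of the 1 with GFRA3 had none, and that of the 1 with MESDC1 had a MESDC1 UMI, and the part of shared barcodes in these counts was not tested.

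GAT, which is listed under that symbol in RefSeq, was the gene most bound to a single embryo. Of its 22 Day 3 UMI, 16 were in Day3-E8, and Day3-E4, Day3-E6 and Day3-E7 had 2 each. Day3-E1, Day3-E2, Day3-E3 and Day3-E5 had 0 UMI, as had all Day 2 embryos, so the groups overlapped at 0. Day3-E8 therefore held 72.7% of the gene's UMI, and 8 of its 15 blastomeres had a GAT UMI. A single blastomere of Day3-E8 had 6 UMI, 27.3% of the total, and without it Day3-E8 still held 62.5%.

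GAT stood at 41.2 CPM in Day3-E8 (95% exact Poisson interval 23.5 to 66.9) and at 0 to 6.47 CPM in the other Day 3 embryos. Its mean over Day 3 was 7.25 ± 14.0 CPM (SD, n = 8), which became 2.404 ± 3.06 CPM (SD, n = 7) without Day3-E8. Against 3 UMI over the Day 2 blastomeres GAT was at least 9.37-fold higher, and without Day3-E8 at least 2.91-fold. EdgeR's test called it (adjusted p = 0.0142), but DESeq2 did not (adjusted p = 0.0999), nor did the exact permutation test (p = 0.205, adjusted p = 0.373). The choice of genes had set the direction of GAT, which had no Day 2 UMI. Without Day3-E8 edgeR's adjusted p was 0.0410, and without both Day3-E4 and Day3-E8 it was 0.0856. Embryos of the first barcode set had no GAT UMI.

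MAGEH1, a member of the melanoma antigen family of ubiquitin ligase partners, was likewise led by 1 embryo, but by a different one. Of its 25 Day 3 UMI, 15 were in Day3-E4, 4 in Day3-E8, 2 each in Day3-E2 and Day3-E5, and 1 each in Day3-E6 and Day3-E7, while Day3-E1 and Day3-E3 had 0. Day3-E4 held 60.0% of the gene's UMI against 10.62% of all Day 3 UMI, and 6 of its 13 blastomeres were positive. The level was 44.8 CPM in Day3-E4 (95% exact Poisson interval 25.1 to 73.9) and at most 10.297 CPM in any other Day 3 embryo.

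The Day 3 mean of MAGEH1 was 9.07 ± 14.86 CPM (SD, n = 8), and 3.96 ± 3.76 CPM (SD, n = 7) without Day3-E4. It was at least 10.64-fold higher on Day 3 than 3 UMI over the Day 2 blastomeres, and at least 4.76-fold without Day3-E4. The adjusted p was 0.00639 by edgeR's test, and the exact permutation test gave p = 0.0696 and an adjusted p of 0.178. Here too the direction was set by the choice of genes, since MAGEH1 had no Day 2 UMI. Within the first barcode set, where MAGEH1 had 2 Day 3 UMI, both from a blastomere of Day3-E2, edgeR's adjusted p was 0.237. GAT and MAGEH1 were thus each found in few blastomeres, 14 and 13 of 118, and 92.0% of the Day 3 UMI of MAGEH1 and all of those of GAT came from embryos of the second barcode set, which held 59.5% of all Day 3 UMI.

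MESDC1, now named TLNRD1 and encoding a protein with a talin rod domain that binds actin, had a UMI in more Day 3 blastomeres than any other of the 6. On Day 3 it had 1 UMI in Day3-E1, 9 in Day3-E2, 4 in Day3-E3, 9 in Day3-E4, 13 in Day3-E6, 1 in Day3-E5, 8 in Day3-E7 and 27 in Day3-E8. Each of the 8 Day 3 embryos exceeded each Day 2 embryo, although Day3-E1 at 1.67 CPM was hardly above Day2-E5, which had the only Day 2 UMI and stood at 1.28 CPM. In 6 of the 8 Day 3 embryos, all but Day3-E1 and Day3-E5, the counting interval lay wholly above the upper bound for all Day 2 blastomeres of 1.38 CPM.

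The mean level of MESDC1 was 0.213 ± 0.522 CPM (SD, n = 6) on Day 2 and 24.5 ± 21.7 CPM (SD, n = 8) on Day 3. The pooled ratio was 91.9 with a 95% exact interval of 16.0 to 3682. MESDC1 was the gene of the 6 that passed both tests across all genes, with an adjusted p of 8.99e-05 by edgeR's test (log2 fold change 5.86, standard error 0.94) and 0.0404 by the exact permutation test (p = 0.00366). It was found in 39 of 118 Day 3 blastomeres and in 12 of 15 of Day3-E8, which held 37.5% of its UMI. The mean share of positive blastomeres per embryo went from 2.08% ± 5.10 (SD, n = 6) to 33.7% ± 25.1 (SD, n = 8). By exact permutation its p was 0.00500 with an adjusted p of 0.0218, and at equal depth the adjusted p was 0.0455.

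**Figure D2:**
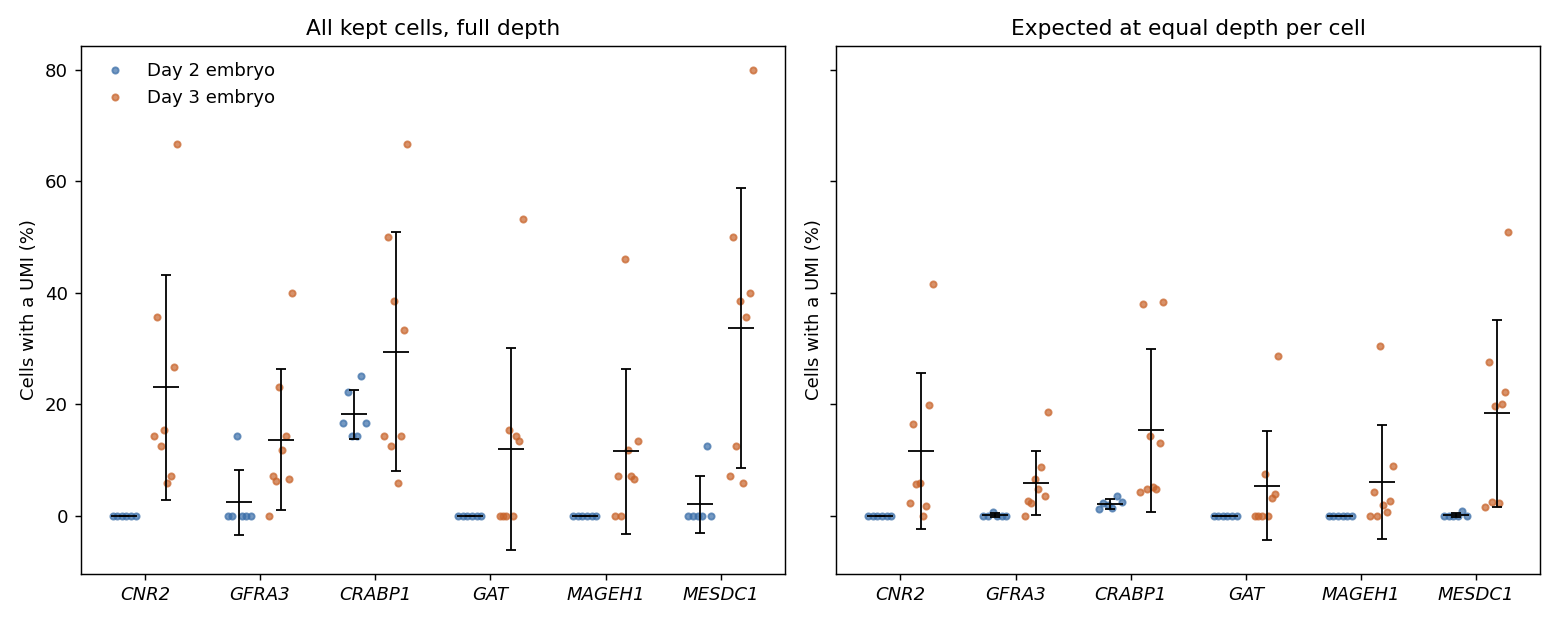
Share of blastomeres with a UMI of each gene (%, vertical axis) at full depth (left) and the share to be expected with each blastomere thinned to 10000 UMI (right). Points are embryos (blue Day 2, orange Day 3) and bars the mean ± SD over 6 and 8 embryos. At full depth CRABP1 has Day 2 shares of 14.29% to 25.0%, which fall to 1.13% to 3.49% at equal depth.

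At full depth the share of blastomeres with a UMI differed between the days by the exact permutation test for CNR2 (23.0 percentage points, p = 0.00466, adjusted p = 0.0210) and MESDC1, and the other 4 genes had adjusted p-values of 0.0542 to 0.362. Since CNR2 had 0 Day 2 UMI, the direction of its difference was set by the choice of genes, and its test is no support for a rise. With an adjusted p under 0.05 in this test, 0.817% of all genes were called higher on Day 3. At equal depth, with 6 Day 2 and 15 Day 3 blastomeres left out, 3.58% of all genes were called higher on Day 3. There MESDC1 passed, and CNR2 (adjusted p = 0.119 by exact permutation), GFRA3 (0.0727), CRABP1 (0.0900), GAT (0.324) and MAGEH1 (0.257) did not.

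Across the table edgeR's test called 2190 of 10772 genes (20.3%), 1533 higher and 657 lower on Day 3, which makes 14.23% called higher. All 6 genes passed this test, but their count is no support for a rise of the set, since the choice fixed the direction of CNR2, GAT and MAGEH1, and GFRA3 and MESDC1 had only 1 Day 2 UMI each. Without TMM scaling the split was 1342 to 1041, with the median log2 fold change of the table at -0.22 instead of -0.05, and with DESeq2 it was 1559 to 1058. The exact permutation test on CPM called 3.43% of all genes higher on Day 3, and MESDC1 alone of the 6. Of the other 14 genes of the activation list, which had likewise been kept for having a UMI here, 12 were called higher and 0 lower by edgeR's test, and the remaining 2 were LRRC14 and PTGDR, with 12 and 16 Day 3 UMI.

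By the number after the p in the sample titles, read here as the plate, Day 2 and Day 3 embryos lay together on plates 2 and 3. On both plates the Day 2 embryos belonged to the first barcode set and the Day 3 embryos to the second. Within a plate, day and barcode set therefore cannot be told apart. On plate 2, which held Day2-E5, Day2-E6, Day3-E7 and Day3-E8, CRABP1 had 19.4 to 51.5 CPM on Day 3 against 2.28 to 3.84 CPM on Day 2. MESDC1 had 25.9 to 69.5 CPM on Day 3 against 0 to 1.28 CPM on Day 2. CNR2, GFRA3, GAT and MAGEH1 had 0 UMI in Day2-E5 and Day2-E6, so 1 UMI in each Day 3 embryo was enough to set them higher. The share of all genes without overlap on this plate was not computed. On plate 3, with 4 Day 2 embryos and Day3-E5 and Day3-E6, CNR2, GAT, MAGEH1 and MESDC1 had 0 UMI on Day 2. Any Day 3 UMI there put their Day 3 mean higher, and GAT had 0 UMI in Day3-E5. The mean of GFRA3 was 4.79 CPM on Day 3 against 0.330 CPM on Day 2. CRABP1 reached only 2.599 and 4.38 CPM in Day3-E5 and Day3-E6 against at most 2.17 CPM in the Day 2 embryos of plate 3, and CNR2 2.599 and 2.19 CPM against 0. With the plate as a term in edgeR's fit, which called 1274 of 10772 genes higher on Day 3, 6 of the 6 genes passed. The log2 fold change of CRABP1 was 2.62 with the term (adjusted p = 0.0223 by edgeR's test) against 3.57 without it. That of MAGEH1 was 4.47 (adjusted p = 0.0302) against 5.35, and that of CNR2 5.96 against 6.07. GFRA3, GAT and MESDC1 had a larger log2 fold change with the term than without. The plate term does not take out the barcode set. By the paper's collection times, the Day 3 embryos of each plate were also collected at a different hour. Among Day 3 embryos plate and collection hour therefore cannot be told apart. Within the first barcode set, with 6 Day 2 and 2 Day 3 embryos, CNR2, CRABP1 and MESDC1 passed, and 625 of 10381 genes were called higher on Day 3. The 2 Day 3 embryos of this set were on plate 1, which held no Day 2 embryo, so there day cannot be told apart from plate.

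**Figure D3:**
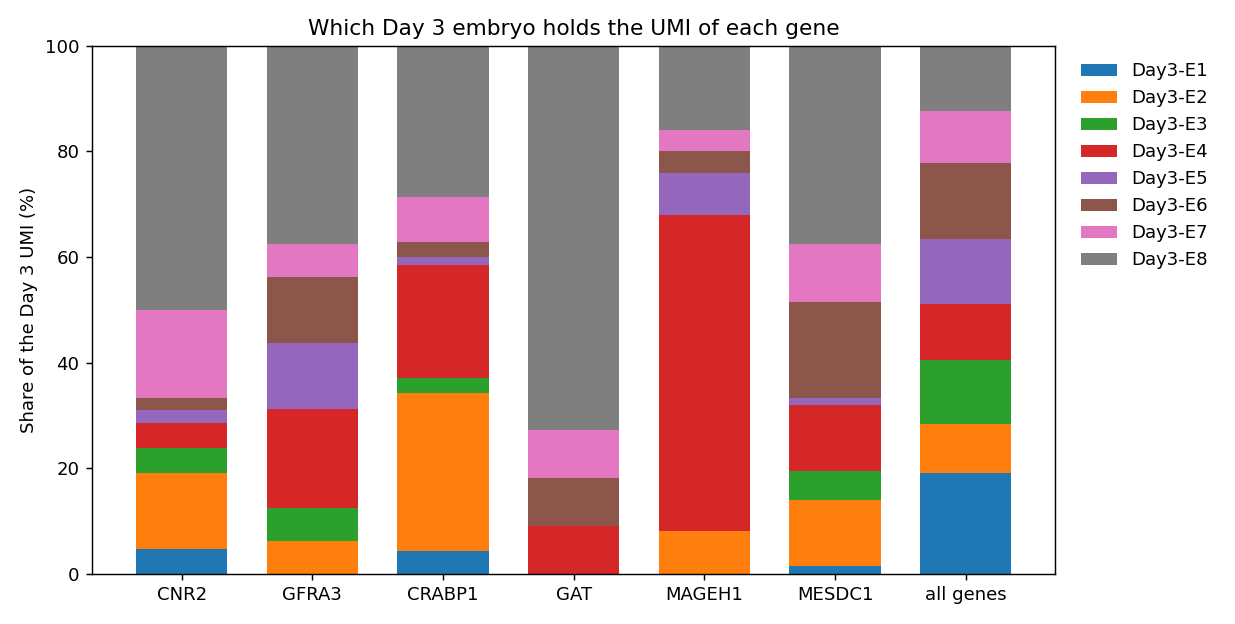
Share of the Day 3 UMI of each gene (%, vertical axis) that each of the 8 Day 3 embryos holds (coloured segments), with all genes together at the right. Day3-E8 takes 72.7% of GAT, 21 of the 42 UMI of CNR2 and 12.3% of all UMI, and Day3-E4 takes 60.0% of MAGEH1.

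Seen from the embryos, Day3-E8 led CNR2, GFRA3, GAT and MESDC1, Day3-E2 led CRABP1 and Day3-E4 led MAGEH1. The 6 genes together stood at 242 CPM in Day3-E8, 137 CPM in Day3-E4 and 132 CPM in Day3-E2. They stood at only 10.0 CPM in Day3-E1 and 18.2 CPM in Day3-E5, with 6 and 7 UMI, against 1.52 to 5.12 CPM in the Day 2 embryos. Day3-E1 was the deepest Day 3 embryo, with 19.1% of all Day 3 UMI. The part of cleavage time and collection hour in these differences among Day 3 embryos was not tested. Both Day3-E7 and Day3-E8 had UMI of all 6 genes, as had Day3-E4 and Day3-E6, while Day3-E1 had UMI of 3.

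Among the blastomeres, at least 1 of the 6 genes was detected in 70 of the 118 Day 3 blastomeres and in 9 of the 43 from Day 2. In 39 Day 3 blastomeres and in 1 Day 2 blastomere 2 or more of them were found, and 3 or more in 22 Day 3 blastomeres, of which 12 were from Day3-E8 and 4 from Day3-E4. Day3-E2 and Day3-E7 had 9 and 7 blastomeres with 2 or more of the genes, against 6 in Day3-E4. The share of blastomeres with at least 1 was lowest in Day3-E3, at 5 of 16. Day3-E1 and Day3-E5 had no blastomere with more than 1 of the genes. No blastomere had a UMI of all 6, and the 3 with most had 5. The 48 Day 3 blastomeres with none of the genes had a median of 23471 UMI and the 31 with 1 of them 25255. The blastomeres with 5 of the genes had a median of 33598 UMI. By gene, positive Day 3 blastomeres had medians of 24650 (MESDC1) to 32188 UMI (MAGEH1), and the others 23695 to 24742 UMI.

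**Figure D4:**
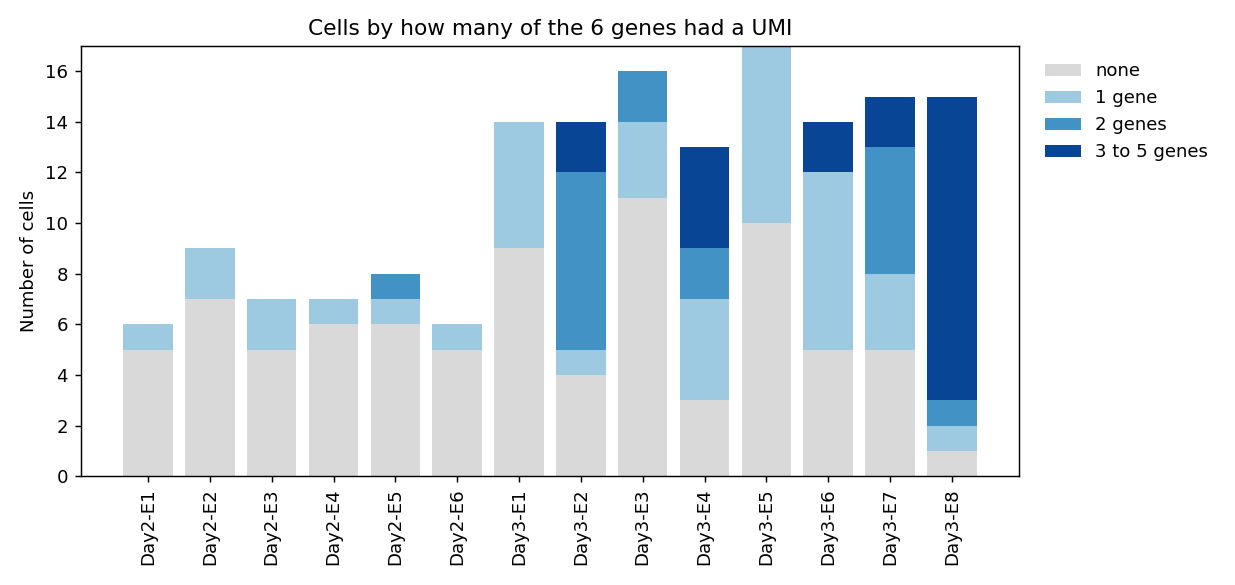
Number of blastomeres (vertical axis) of each embryo (horizontal axis) by how many of the 6 genes had a UMI in them (shades of blue; grey for none). In Day3-E8, 14 of 15 blastomeres had a UMI of at least 1 of the genes and 12 had 3 or more, whereas in Day3-E1 5 of 14 had exactly 1.

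Of 45 measured genes in 5 lists of pathway partners of the 6 genes, 9 were called by edgeR's test (20.0%) and, over the whole table, 20.3% of genes, which is near that share. Of all genes, 14.23% were called higher and 6.1% lower on Day 3. Of 13 measured genes of retinoic acid transport, synthesis, breakdown and response, 2 were called higher on Day 3 by edgeR's test and 0 lower, with a median log2 fold change of 0.13. These were NR2F2, a nuclear receptor (25.5 ± 12.9 CPM, SD, n = 6, to 129 ± 92.1 CPM, SD, n = 8), and CYP26A1, which breaks down retinoic acid (3.19 to 12.9 CPM, adjusted p = 0.0435 by edgeR's test, not called without TMM scaling). The most abundant genes of the list, FABP5 (415 and 316 CPM) and ALDH1A1 (109 and 69.0 CPM), were not called.

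Of 11 measured genes of cannabinoid synthesis, breakdown and signalling, 0 were called higher and 3 lower on Day 3, against 14.23% and 6.1% of all genes. NAPEPLD, an enzyme that makes anandamide, went from 340 ± 30.1 CPM (SD, n = 6) to 183 ± 103 CPM (SD, n = 8), ABHD6, which breaks down endocannabinoids, from 40.1 to 17.9 CPM, and the G protein subunit GNAI1 from 255 to 94.5 CPM. The other cannabinoid receptor, CNR1, was absent from the table. In the list of GDNF family ligands and their receptors RET was the gene called among 4 measured, and NCAM1, next in UMI, had 5 UMI on Day 2 and 3 on Day 3. The ligand ARTN was absent from the table.

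In the MAGE family list, which also holds NGFR, a gene outside the family, MAGED1 was called higher on Day 3 among 5 measured genes (3.18 ± 1.19 CPM, SD, n = 6, to 31.4 ± 20.0 CPM, SD, n = 8, adjusted p = 0.000131 by edgeR's test). NSMCE3, the family member with the most UMI, stood at 126 and 71.5 CPM and was not called, but was called lower without TMM scaling. Of 12 measured genes of talin and focal adhesion 0 were called higher and 2 lower, against 14.23% and 6.1% of all genes. The 2 were the integrin ITGB1 (380 to 175 CPM) and the small GTPase RAP1A (457 to 185 CPM). DESeq2 called 4 of the 12 lower, with talin itself (TLN1) and the kinase PTK2 added. FERMT2, the most abundant of them, stood at 1025 and 616 CPM and was not called.

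The genes whose levels followed each of the 6 most closely over the 14 embryos were found among 7049 genes with 50 or more UMI, by Pearson's r of log2(CPM + 1). Since the 14 embryos include both days, r holds the difference between days as well as that among Day 3 embryos, and embryos share library pools, so r is a description only. For MESDC1 these were PRNP (r = 0.98, Spearman's rho 0.97), RBBP6 and EIF3A, for CRABP1 RPS18 (r = 0.97, rho 0.89), MBIP and THRAP3, and for GFRA3 KTI12 (r = 0.96, rho 0.94), FOLR1 and CHTOP. FOLR1 is itself on the activation list. For CNR2 they were DHX9 (r = 0.94, rho 0.92), RPL8 and PUS7, for MAGEH1 TOMM5 (r = 0.95, rho 0.89), BIRC5 and NUDT21, and for GAT RRP9 (r = 0.93, rho 0.79), ZCCHC17 and ATP1B3. Without the 2 embryos farthest from the median of the partner gene, r was 0.78 to 0.83 for the genes of GAT and 0.88 to 0.98 for those of the other 5.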

How the data were processed

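Blastomeres were sequenced by SCRB-Seq, and the authors mapped reads to Bos tau7 and ERCC spike-ins with STAR 2.5.2b (version per the labels) and tabulated UMI with the Drop-seq pipeline. The deposited UMI counts, whole numbers of 170 cells, were used for all results. The authors also deposited a normalised UMI signal of 161 cells, described as scaled to each cell's total. Of the 153 values above 0 of the 6 genes in it, 1 equalled the count scaled by the cell's own total, and 153 the count scaled by totals run down the genes instead of across the cells (relative tolerance 1e-06), so it was not used for levels. Cells with 2000 or more UMI, ERCC included, were summed per embryo without ERCC rows. The 6 genes and all gene lists were chosen with earlier results of these data known. No low-count filter was applied, so that the 6 genes stayed in. Named genes were the 6, called genes and the 2 most abundant of each pathway list, and for each of the 6 the 3 closest in pattern. Day 3 and Day 2 were compared with edgeR 4.0.16 (quasi-likelihood, TMM, threshold 0.05), and by exact permutation over all 3003 splits of the embryos, both adjusted over 10772 genes and tested on simulated data. The smallest p that the permutation can give is 0.000333. Thinned shares are exact hypergeometric expectations at 10000 UMI. Alternatives included DESeq2 1.42.0, filters, plate, barcode set and each embryo left out. All 6 symbols matched RefSeq's bovine table, MESDC1 as an older name. That table (ARS-UCD2.0) is of another build, so no coordinates are given.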

Additional observations from a re-analysis of the deposited data

Results flagged for a closer look

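Of 9 combinations of gene and day with any UMI, 6 had an embryo whose gap to its nearest neighbour passed Dixon's critical value at the 95% level. Chance passes it in about 1 of 20 groups of normally distributed values, a rate that does not hold for counts this sparse. On Day 3 these were CNR2 at 54.1 CPM, GAT at 41.2 CPM and MESDC1 at 69.5 CPM, all in Day3-E8, and MAGEH1 at 44.8 CPM in Day3-E4. The gap divided by the range of the 8 embryos was 0.606 for CNR2, 0.843 for GAT, 0.575 for MESDC1 and 0.770 for MAGEH1. On Day 2 they were GFRA3 at 1.32 CPM in Day2-E3 and MESDC1 at 1.28 CPM in Day2-E5, each of which is a single UMI among embryos at 0, where passing was fixed by the counts. Day3-E2 for CRABP1 (71.2 CPM) and Day3-E8 for GFRA3 (15.45 CPM) did not pass.

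Among the 9 cells under the threshold of 2000 UMI, a cell of Day3-E8 with 958 UMI held 2 UMI of GAT, and the other 5 genes had none in these cells. Day3-E8 is also the embryo that held most GAT UMI among the cells kept.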

How the results depend on the processing

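All 6 genes had a higher mean on Day 3 with other cell thresholds and without any 1 embryo, but GAT, at 0 on both days, did not within the first barcode set, and 2 or 3 of the 6 had a Day 2 UMI. For CNR2, GAT and MAGEH1, with 0 UMI on Day 2, no such change could have reversed the direction. GFRA3 and MESDC1 had only 1 Day 2 UMI each, so little could change for them either. Leaving out each embryo in turn gave 1714 to 2965 genes called, and 6 of the 6 each time. With the first barcode set alone 670 genes and 3 of the 6 were called, and with Day3-E3 added to it, an alternative chosen after seeing the data, 818 genes and 3 of the 6 (GFRA3 adjusted p = 0.429 and MAGEH1 0.242 by edgeR's test). The exact permutation test on CPM called 1442 genes and 1 of the 6. Under edgeR's own low-count filter none of the 6 was left to test. Leaving out both Day3-E4 and Day3-E8, also chosen after seeing the data, called 1550 genes and 5 of the 6, GAT being lost. Over 25 alternatives (23 for GAT) edgeR, DESeq2 or the exact permutation test called MESDC1 in 25, CNR2 and CRABP1 in 24, MAGEH1 in 22, GFRA3 in 21 and GAT in 19. Of these alternatives, 14 leave 1 embryo out of the same fit and are not independent of each other. The choice of genes set the direction of CNR2, GAT and MAGEH1, so their tallies are no support for a rise. GAT had no UMI to test in the fits on the first barcode set. Embryo numbers are only names: the correlation of deviations of same-numbered embryos was -0.13 to 0.03, and with them as a replicate block, on embryos 1 to 6 of each day, 1507 genes and 4 of the 6 were called, with GFRA3 (adjusted p = 0.0996 by edgeR's test) and GAT (0.316) not called; the fit leaves out Day3-E7 and Day3-E8. The share of blastomeres with a MAGEH1 UMI had an exact p of 0.0203, and of 0.0855 without any 1 of the Day 2 embryos. Counts this low limit every value here, since 1 UMI in an embryo is 1.09 CPM at best.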
